A study of Mus musculus with 2 samples.

Results

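The Mir30 family of the mouse was described in small RNA libraries of the embryonic forebrain. Its 6 genes, Mir30a, Mir30b, Mir30c-1, Mir30c-2, Mir30d and Mir30e, were found by name among the 1973 microRNA genes of each count table, and all 6 were present. The study held 2 libraries of 1 group, forebrain of B6NCrl embryos at embryonic day 13.5 with male and female tissue pooled, each limited to RNA shorter than 30 nucleotides. The libraries are named as biological replicates 1 and 2 and share 1 donor identifier, so that the spread between them may in part be technical. With 1 group there was no treated, mutant or control arm and no comparison between conditions.

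MicroRNAs are cut from hairpin precursors, and either arm of the hairpin, called 5p or 3p, can be loaded into an Argonaute protein. The loaded strand pairs with target messages mainly through its seed, the short stretch near its 5′ end. The miR-30 microRNAs are expressed in many tissues and share 1 seed on the 5p arm. They are known to repress Dll4, a Notch ligand, in endothelial cells, and in the frog Xenopus they limit the kidney factor Lhx1. The genes lie in pairs at 3 loci.

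The mature sequences are shown because they decide which genes a read can be assigned to. They come from RefSeq (GRCm38.p6), where 4 of the 6 members matched, Mir30a, Mir30c-1, Mir30c-2 and Mir30e, and not Mir30b and Mir30d. Capitals mark the seed, bases 2 to 8.
miR-30a-5p: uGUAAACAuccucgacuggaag
miR-30e-5p: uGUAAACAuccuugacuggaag
miR-30c-5p: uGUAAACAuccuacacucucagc
miR-30a-3p: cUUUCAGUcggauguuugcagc
miR-30e-3p: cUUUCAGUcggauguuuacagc
miR-30c-1-3p: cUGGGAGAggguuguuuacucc
miR-30c-2-3p: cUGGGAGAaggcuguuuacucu
miR-384-5p: uGUAAACAauuccuaggcaaugu

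The 5p arms of Mir30a, Mir30c-1, Mir30c-2 and Mir30e had the same seed. On the 3p arm the genes fell into 2 groups, with 1 seed for Mir30a and Mir30e and another for Mir30c-1 and Mir30c-2. Positions below are counted from 1 at the 5′ end of the mature strand. Between Mir30a and Mir30e the 5p arms differed by C13U alone and the 3p arms by G18A alone, and the longest run shared by the 5p arms was 12 nucleotides. The 5p arms of Mir30c-2 and Mir30c-1 were identical over 23 nucleotides, and their 3p arms differed by A9G, C12U and U22C. Among 1738 mature RefSeq sequences, 5 had the 5p seed of the family, and the only one outside it was miR-384-5p.

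The chromosome 4 hairpins show how the arms are placed within an abundant and a scarce member. Capitals mark the mature arms, 5p first.
Mir30e, chr4:120772606-120772697, minus strand: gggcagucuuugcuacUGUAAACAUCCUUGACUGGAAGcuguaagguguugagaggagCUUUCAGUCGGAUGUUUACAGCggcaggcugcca
Mir30c-1, chr4:120769534-120769622, minus strand: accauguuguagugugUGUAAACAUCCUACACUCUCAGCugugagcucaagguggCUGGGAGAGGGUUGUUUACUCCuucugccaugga

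The arms were separated by 20 nucleotides in Mir30e and 16 in Mir30c-1, against 19 in Mir30a and 17 in Mir30c-2. Each deposited count covers a whole hairpin gene, so the share of 5p and 3p reads was not measured.

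The family had 149598 reads on its own strand in replicate 1 and 138088 in replicate 2. The share of the gene counts was 3.63% in replicate 1, with a 95% Wilson interval from 3.61 to 3.65, and 3.53% in replicate 2, with an interval from 3.51 to 3.55. The mean was 3.58% ± 0.0710 (SD, n = 2). When microRNA genes were grouped by the number in their symbol, Mir30 stood at rank 6 in both libraries, below Mir130 at 4.31% and above Mir181 at 3.31%. Gene counts made up 4117752 of the 10631040 reads of replicate 1 and 3908953 of the 10452225 reads of replicate 2. Levels below are CPM, reads relative to 1000000 gene counts of the library, so that 1 read adds 0.243 CPM in replicate 1, and in replicate 2 it adds 0.256. They were not divided by gene length, since a read stands for 1 short RNA, and the order of the members was the same per 100 nucleotides of annotated gene. CPM values compare reads counted, and how evenly the different microRNAs were captured was not measured.

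Reads of markers of the labelled tissue were present, though not of all. Of 11 microRNAs of neural progenitors or neurons, 10 were in the tables and 8 were detected, that is, had 10 or more reads in both libraries. Together the list held 2.54% ± 0.262 of gene counts (SD, n = 2), led by Mir92b. The genes of miR-124, a marker of neurons, had at most 20 counts, and each has copies elsewhere. Endothelial Mir126a held 1.74% ± 0.197, the choroid plexus and multiciliated list 0.838% ± 0.197 and the mural and mesenchymal list 0.661% ± 0.0431. The other lists were low, with 0.0113% for the erythroid, 0.0259% for the leukocyte and microglia, 0.00427% for the striated muscle list (Mir1a-1 and Mir133a-1 at 0) and 0.00560% for liver Mir122. In bulk tissue, fewer cells of a type and less RNA per cell cannot be told apart.

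The 6 genes fell into 2 tiers of reads, and each locus held 1 gene of either tier. Mir30e, Mir30a and Mir30d held 99.4% of the family's reads in either library (99.4% ± 0.0606, SD, n = 2). Mir30b, Mir30c-1 and Mir30c-2 together held 0.550% in replicate 1 and 0.636% in replicate 2. From the highest to the lowest member, mean CPM spanned 632-fold. Over Mir30e, Mir30a, Mir30d and Mir30b, the 4 members with no copy as defined below, it spanned 185-fold. The values that include Mir30c-1 and Mir30c-2 leave out reads that fit both genes, as set out below.

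Mir30e (ENSMUSG00000065409.1) had 83411 reads in replicate 1 and 78382 in replicate 2, which was 20256 and 20052 CPM. It was the most abundant member in both libraries, at rank 11 and 12 of all genes, and averaged 20154 ± 145 CPM (SD, n = 2). The gene lies in an intron of Nfyc, which encodes a subunit of the CCAAT-binding factor NF-Y, on the same strand.

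Mir30c-1 (ENSMUSG00000065490.1), its neighbour in an intron of Nfyc, had 268 reads in replicate 1 and 304 in replicate 2. It averaged 71.4 ± 8.97 CPM (SD, n = 2), at rank 233 and 211. The genes are 2983 nucleotides apart and are read in the order Mir30e, Mir30c-1. Nfyc itself was not measured by these libraries.

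Mir30a (ENSMUSG00000065405.2) had 40689 reads in replicate 1 and 37781 in replicate 2, an average of 9773 ± 153 CPM (SD, n = 2). It was second in the family, at rank 20 and 21 of all genes. It lies on the plus strand (chr1:23272269-23272339), where GENCODE M21 places no other gene over it, and the nearest protein-coding gene, Ogfrl1, is 94085 nucleotides away.

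Mir30c-2 (ENSMUSG00000065567.1) had 116 reads in replicate 1 and 139 in replicate 2, the lowest counts of the family, with 31.9 ± 5.22 CPM (SD, n = 2). It lies 19361 nucleotides beyond Mir30a on the same strand (chr1:23291701-23291784), within the exon of the long noncoding RNA Gm27028.

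Mir30d (ENSMUSG00000065437.1) had 24675 reads in replicate 1 and 21047 in replicate 2, which was 5992 and 5384 CPM. It stood at rank 38 in either library, with 5688 ± 430 CPM (SD, n = 2). It lies on the minus strand (chr15:68341208-68341289) over an exon of the long noncoding RNA Gm20732.

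Mir30b (ENSMUSG00000065476.2) had 439 reads in replicate 1 and 435 in replicate 2, or 109 ± 3.30 CPM (SD, n = 2). It lies 3697 nucleotides beyond Mir30d in the direction of transcription (chr15:68337415-68337510) and is partly overlapped by the transcript Gm26621. The protein-coding gene nearest to Mir30b, Zfat, is 78559 nucleotides away.

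**Figure D1:**
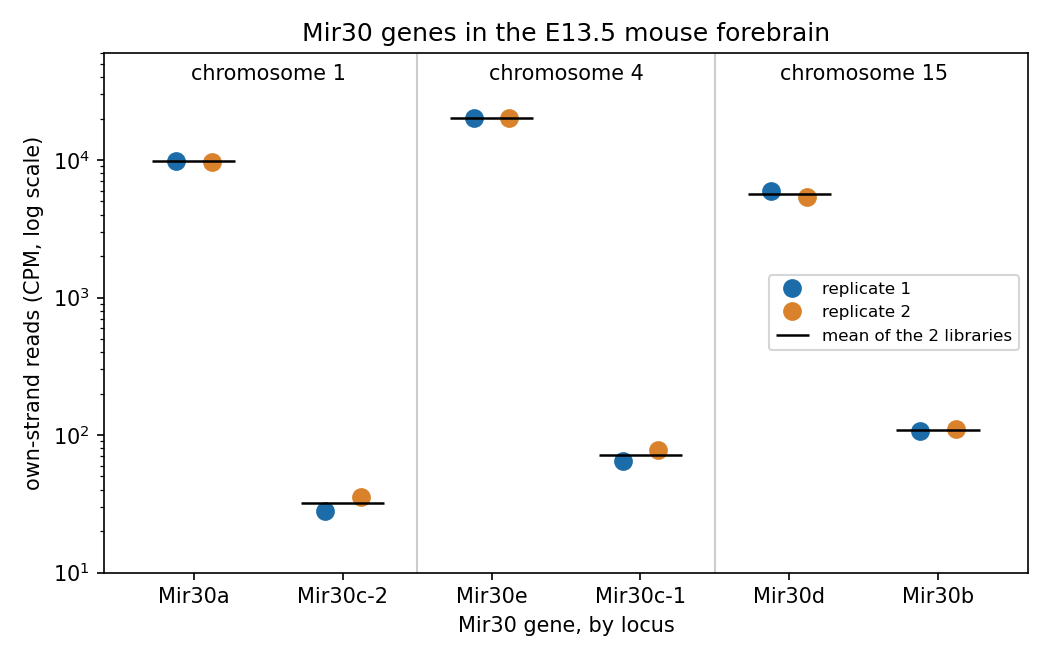
Own-strand reads of the 6 Mir30 genes in CPM (vertical axis, log scale), grouped by locus, with a point for each library and a line at their mean. At each locus the left gene stands far above the right one, from 5384 CPM upward against 111 CPM or less in either library, and the points of a gene lie close together.

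The order Mir30e, Mir30a, Mir30d, Mir30b, Mir30c-1, Mir30c-2 was the same in both libraries. Mir30e had 2.05 times the reads of Mir30a in replicate 1 (exact 95% interval 2.03 to 2.07) and 2.07 times in replicate 2 (2.05 to 2.10). Mir30a had 1.65 and 1.80 times the reads of Mir30d in replicates 1 and 2. Mir30b had 1.64 and 1.43 times those of Mir30c-1, and Mir30c-1 had 2.31 and 2.19 times those of Mir30c-2. In every neighbouring pair of this order the gap between the means was larger than the SD of both genes, the smallest being 37.5 CPM between Mir30b and Mir30c-1 against an SD of 8.97. With 2 libraries a permutation test cannot reach the threshold, and none was made.

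By locus, chromosome 4 held 55.9% of the family's reads in replicate 1 and 57.0% in replicate 2 (56.5% ± 0.740, SD, n = 2). Chromosome 1 held 27.3% and 27.5% (27.4% ± 0.130), and chromosome 15 held 16.8% and 15.6% (16.2% ± 0.870). The order of the loci was the order of their leading genes, Mir30e, Mir30a and Mir30d.

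Within each locus the members differed far more than the libraries did. Mir30a over Mir30c-2 was 351-fold in replicate 1 (exact 95% interval 292 to 425) and 272-fold in replicate 2 (230.1 to 323). Mir30e over Mir30c-1 was 311-fold (276 to 352) and 258-fold (230.4 to 289.5). The chromosome 1 and chromosome 4 ratios, at log2 8.27 ± 0.26 and 8.15 ± 0.19 (SD, n = 2), differed by less than their spread. Mir30d over Mir30b was smaller, 56.2-fold (51.1 to 61.9) and 48.4-fold (44.0 to 53.3), or log2 5.70 ± 0.15. The scarce genes on chromosomes 1 and 4 are the copies Mir30c-2 and Mir30c-1, and neither Mir30d nor Mir30b has a copy.

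A copy here means an exact stretch of at least 20 nucleotides shared with another annotated microRNA transcript, and the identical miR-30c-5p printed above is such a stretch. The tables set multi-mapped reads apart from the genes, and these were 40.6% of the reads of replicate 1 and 43.9% of those of replicate 2. A read of miR-30c-5p was taken to stand there and in neither gene. How many of those reads are miR-30c was not measured, so the counts of Mir30c-1 and Mir30c-2 are uncertain. The same holds for what rests on them, which is the 2 ratios, their place below Mir30b and the 632-fold span. It also holds for the 99.4% and 0.550% to 0.636% parts of the family, and the shares of the family and its loci. The same is true of the rank of the family among symbol groups. The ratios of Mir30c-1 and Mir30c-2 between the libraries, given below, are uncertain too, and the multi-mapped share itself differed between the libraries. The 48.4-fold to 56.2-fold ratio of Mir30d over Mir30b involves no such copy. Shorter or inexact likeness does not count as a copy here, such as that of Mir30a and Mir30e, whose 5p arms differ by C13U alone. How many reads of any member, Mir30d and Mir30b included, were misplaced or multi-mapped through such likeness was not measured.

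Other microRNA families whose genes lie in pairs give the same readout for comparison. The Mir181 family, with 6 genes at 3 loci, had a share of 3.37% in replicate 1 (Wilson interval from 3.35 to 3.38) and of 3.26% in replicate 2 (from 3.24 to 3.28), below the Mir30 share in both libraries. Its a gene was above the b gene at 1 locus and below it at another. Mir181a-1 over Mir181b-1 was 162-fold in replicate 1 and 230.1-fold in replicate 2, and Mir181a-2 over Mir181b-2 was 0.0951 and 0.219. All 4 of these genes have copies in each other, so both ratios are as uncertain as those of Mir30c-1 and Mir30c-2. The Mir181 share leaves out such reads of 4 of its 6 genes, so its place below the Mir30 share is uncertain too. Mir181c over Mir181d, with no copies, was 1.78-fold and 1.94-fold. The Mir29 family held 0.0365% ± 0.00224 (SD, n = 2). Mir29a over Mir29b-1 was 115-fold and 80.9-fold with 7 and 11 reads of Mir29b-1, and Mir29c over Mir29b-2 was 104-fold and 97.0-fold with 6 reads of Mir29b-2 in either library. Of these, Mir29b-1, Mir29b-2 and Mir29c have copies. No test between families was made.

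**Figure D2:**
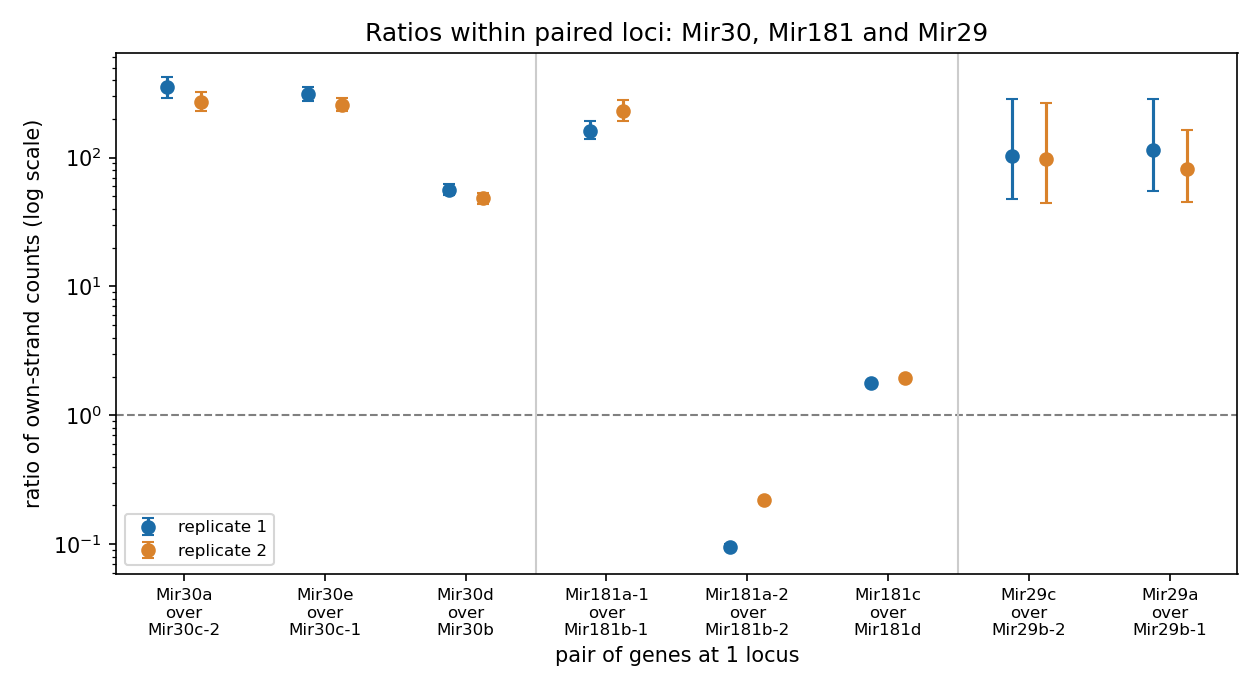
Ratio of own-strand counts within each paired locus (vertical axis, log scale, dashed line at equal counts) for the Mir30, Mir181 and Mir29 families, with a point for each library and exact 95% intervals of counting error. The Mir30 ratios run from 48.4 to 351, while Mir181 ratios lie on both sides of 1. In the Mir30 and Mir29 pairs the gene with more reads is on top, and in the Mir181 pairs the a or c gene. The side of 1 therefore follows in part from that choice. Only Mir30d over Mir30b and Mir181c over Mir181d involve no copies.

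Across the whole table, 29 loci held exactly 2 microRNA genes on 1 strand within 25000 nucleotides with both genes detected. Ranked by the mean log2 ratio of the higher over the lower gene, the Mir30 loci on chromosomes 1, 4 and 15 stood at rank 2, 3 and 9. Loci whose lower gene was not detected are left out, and these can have large ratios. Both Mir29 loci are left out so, at a mean log2 ratio of 6.65 and 6.59, above 5.70 for Mir30d over Mir30b. The ranks and the medians below hold among the 29 loci only. The median of the other 26 loci was 2.86 (7.28-fold). It was 13.4-fold in the 14 where a gene has a copy and 3.33-fold in the 12 without. Among those 12, 1 locus (Mir143 over Mir145a) exceeded the ratio of Mir30d over Mir30b. In all 3 Mir30 loci the gene with more reads was the first in the direction of transcription, as it was in 12 of the other 26. On chromosomes 1 and 4 the rank and this order rest on the uncertain counts of Mir30c-2 and Mir30c-1. These are descriptions of reads, with no test.

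**Figure D3:**
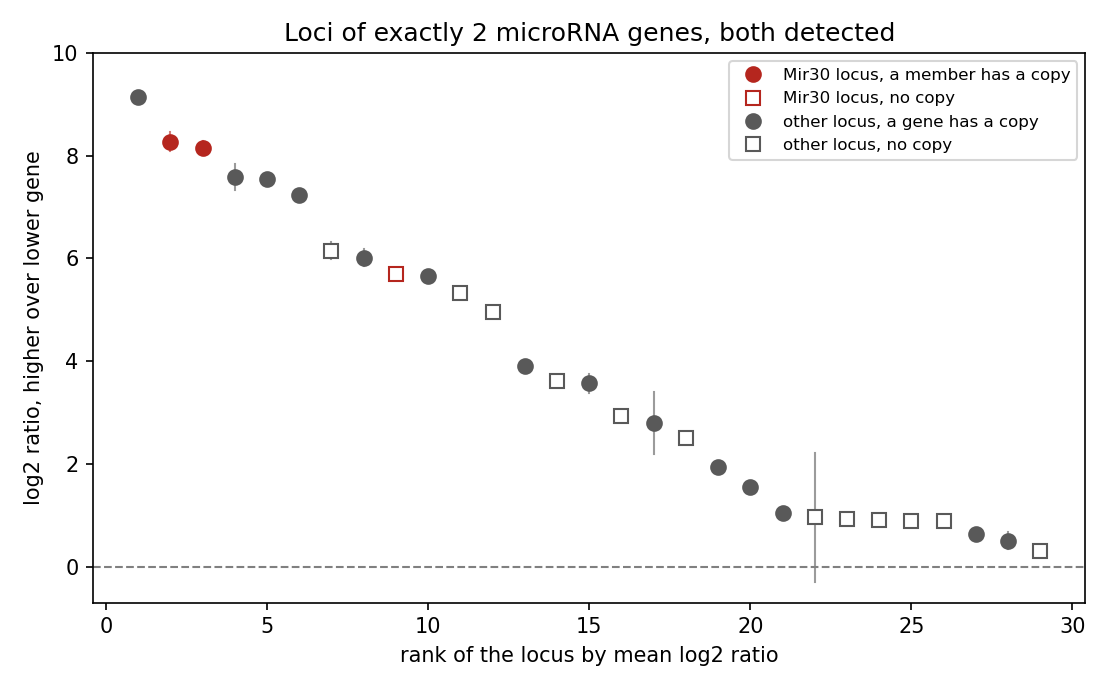
Mean log2 ratio of the higher over the lower gene (vertical axis) for 29 loci of exactly 2 detected microRNA genes, by rank (horizontal axis), with lines from replicate 1 to replicate 2, Mir30 loci in red and open squares for loci without copies. The Mir30 loci stand at rank 2, 3 and 9.

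The libraries differed little in the abundant members. Over all genes with 10 or more reads summed over both libraries, a two-sided exact binomial test with TMM library sizes called 38.9% of 475 genes at an adjusted p under 0.05. It called 5 of the 6 members, 1 higher and 4 lower in replicate 1, beside 20.8% and 18.1% of all genes. With library totals 2 members were higher, Mir30a and Mir30d, and 0 lower, beside 29.7% and 11.4% of all genes. The test compares these 2 libraries, not conditions, and covers counting error only. An edgeR exact test with the dispersion estimated from these libraries (a biological coefficient of variation of 14.3%) called 0 members, with 0 at an unadjusted p under 0.05, and 1 of 475 genes (0.211%), with 31 at an unadjusted p under 0.05. That dispersion comes from the same difference, so few calls follow by construction. With library totals those 2 members stood beside 41.1% of all genes called, with DESeq2 size factors the binomial test called 4 beside 38.9%, and without the count filter 4 beside 24.2% of 720 genes. Among the 293 genes with 50 or more reads in both libraries it called 5 beside 58.4%.

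As a log2 ratio of replicate 1 over replicate 2, Mir30a stood at -0.08 and Mir30e at -0.09, with an adjusted p of 6.09e-13 and 4.03e-38 in the exact binomial test. Both turned positive, at 0.03 and 0.01, with library totals in place of TMM, and Mir30e then did not pass (adjusted p = 0.0915, exact binomial). Mir30d was higher in replicate 1, at 0.05 (adjusted p = 0.00269, exact binomial). Totals moved the median of the tested genes by 0.11, to 0.09, against -0.02 with TMM. Relative to that median Mir30a stood at -0.05, Mir30e at -0.07 and Mir30d at 0.07 under either scaling. That sameness follows by construction, since other library sizes move every log2 ratio by the same amount.

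The scarce members lay lower in replicate 1 by more, on fewer reads. The counts of Mir30c-1 and Mir30c-2 leave out reads that fit both genes, so their ratios are uncertain. Mir30c-2 stood at -0.44 (95% interval -0.81 to -0.08, adjusted p = 0.0379, exact binomial) and Mir30c-1 at -0.37 (-0.61 to -0.12, adjusted p = 0.00815). Neither passed with library totals, at an adjusted p of 0.143 and 0.0812 in the same exact binomial test. Mir30c-2 also did not pass with DESeq2 size factors (0.0707) or without the count filter (0.0572). Mir30b, at -0.17 (-0.37 to 0.02), did not pass (adjusted p = 0.171, exact binomial). The median over the 6 members was -0.13, beside -0.02 over all genes tested. Of the 377 detected genes, 84.9% lay within a log2 ratio of 0.5 in either direction, as did all 6 members.

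Some markers of the listed cell types also differed between the libraries in the same binomial test with TMM sizes. That test called 20.8% of all 475 genes higher and 18.1% lower in replicate 1. Marker calls are given with this scaling only. Of 9 neural genes tested, 3 were higher in replicate 1, Mir137, Mir128-1 and Mir128-2, and 6 were not called, with log2 ratios from -0.11 to 0.41 and a median of -0.01. All 4 choroid plexus and multiciliated genes were higher in replicate 1, from 0.35 to 0.62. Endothelial Mir126a was lower in replicate 1, at -0.34. Of 4 mural and mesenchymal genes 1 was lower, Mir143 at -0.47, and 3 were not called, up to 0.46 for Mir199a-2. The erythroid genes went opposite ways, Mir451a at 1.73 and Mir144 at -0.77. Of 2 leukocyte genes 1 was lower, Mir223 at -0.30, of 2 striated muscle genes 1 was higher, Mir206, and liver Mir122, at 0.06, was not called. Their part in the ratios of the Mir30 genes was not tested.

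**Figure D4:**
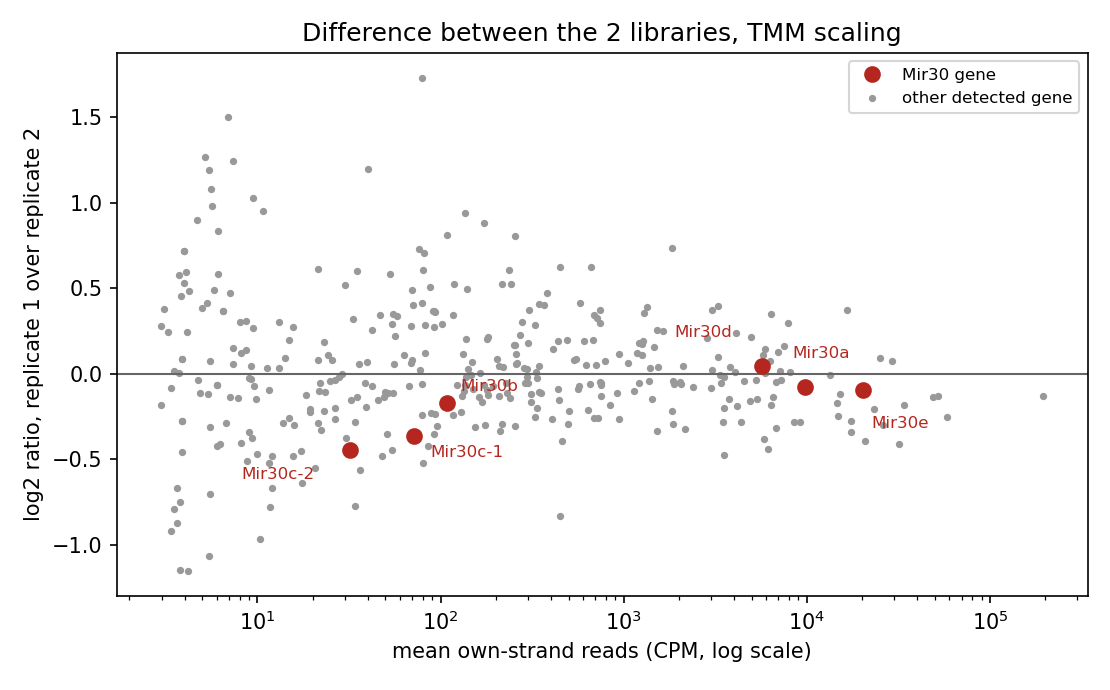
Log2 ratio of replicate 1 over replicate 2 with TMM scaling (vertical axis) against mean CPM (horizontal axis, log scale) for the 377 detected genes, Mir30 genes in red. The abundant members lie between -0.09 and 0.05, and the scarce ones between -0.44 and -0.17.

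No read fell on the strand opposite to any of the 6 genes in either library. For Mir30e that is 0 of 83411 reads in replicate 1 and 0 of 78382 in replicate 2, which allows up to 3 counts in each, or a share of up to 0.00360% and 0.00383%. For Mir30c-2, with the fewest reads, the limits were 2.59% and 2.16%. GENCODE M21 places a further microRNA gene, Mir30f, opposite Mir30e over the same bases, and the tables have no row for it. Reads of Mir30f would be opposite-strand reads of Mir30e, and the 0 counts allow up to 0.729 CPM in replicate 1 and 0.767 CPM in replicate 2. Among the 293 genes with 50 or more reads in both libraries, 265 (90.4%) also had 0 opposite-strand reads, so this is the usual state of the tables.

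Mir384 on chromosome X, the gene outside the family with the same 5p seed, had 1130 reads in replicate 1 and 886 in replicate 2. It averaged 251 ± 33.8 CPM (SD, n = 2), below Mir30d and above Mir30b. Replicate 1 over replicate 2 gave a log2 ratio of 0.17 (adjusted p = 0.0290, exact binomial).

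Genes closest in level to each member were found by the distance in log2(CPM + 1) over the 2 libraries among 371 other detected genes. They were Mir20a for Mir30e (20816 ± 2872 CPM), Mir130b for Mir30a (9157 ± 778 CPM) and Mir296 for Mir30d (5748 ± 619 CPM), with SD and n = 2. The scarce members were closest to Mir5099 (Mir30b), Mir3072 (Mir30c-1) and Mir551b (Mir30c-2). The distances ran from 0.05 for Mir296 to 0.23 for Mir3072. With 2 libraries of 1 group this is likeness of level alone.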

How the data were processed

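The authors deposited 1 table per library of read counts per microRNA gene (mm10, GENCODE M4, per their read-me texts). The sources used here name neither the aligner nor the counting tool. A table has 3 count columns (either strand, strand of the gene, opposite strand) and 4 summary rows, which were left out of library sizes. In replicate 1 these held 16.7% unmapped, 40.6% multi-mapped, 3.99% unassigned and 0 ambiguous reads, and in replicate 2 15.0%, 43.9%, 3.71% and 0. Names and positions were taken from GENCODE M21 on the same build, which matched 1894 of 1973 genes, and sequences from RefSeq.

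CPM, shares with Wilson intervals and ratios with exact (Clopper-Pearson) intervals were computed with Python 3.11.15 and SciPy 1.17.1, and TMM sizes, size factors and tests with R 4.3.3, edgeR 4.0.16 and DESeq2 1.42.0. Library ratios have a prior count of 0.5, and p-values have Benjamini-Hochberg adjustment over all genes tested. Intervals and limits (3 counts for a count of 0) cover counting error only, since PCR reads are not independent molecules. The binomial test was checked on simulated Poisson counts of these libraries, where it called 200 of 200 genes changed 4-fold and 5 of 279 unchanged genes among 479 tested. Such counts hold the counting error that the test assumes. The check therefore says nothing of calls under a wider spread or of ratios as small as those of the members. Named genes were all members, genes with the 5p seed, the closest gene in level to each member, the Mir181 and Mir29 families and leading marker genes. Other genes named (Mir145a, Mir137, Mir128-1, Mir128-2, Mir199a-2, Mir144, Mir223, Mir206 and the neighbours of the loci) and the 25000-nucleotide rule were chosen after values were seen. The members and lists were chosen with earlier results of these data known. Alternatives were other denominators, scalings, filters, strands and each library alone.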

Additional observations from a re-analysis of the deposited data

How the results depend on the processing

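Member levels stayed within the spread of the libraries under TMM sizes. TMM factors shift the 2 libraries in opposite directions, so their mean could hardly move, and this too says nothing of stability. Leaving out a library, leaving out the members with copies and either-strand pair ratios could not move the values beyond that spread by construction, and say nothing of stability. With 2 libraries, either alone lies within 1 SD of the mean. Mir30c-1 and Mir30c-2 hold 0.200% and 0.0891% of the family's reads, so leaving them out left the share at 3.57%, which does not test the reads they share. With 0 opposite-strand reads on the members, either-strand counts give the same pair ratios. Relative to all reads the family share was 1.36%, and the levels were 3721 (Mir30a), 12.1 (Mir30c-2), 7673 (Mir30e), 27.1 (Mir30c-1), 2167 (Mir30d) and 41.5 (Mir30b) reads relative to 1000000, all by construction of a larger total. The share was 4.45% without the most abundant gene of the tables (Mir99a) and 3.51% with either-strand counts. Of the members, 5 passed the library test, beside 38.9% of all genes tested. With DESeq2 size factors 4 passed beside 38.9%, and without the count filter 4 beside 24.2%. With at least 50 counts in each library 5 passed beside 58.4%. With library totals 2 passed (Mir30a and Mir30d, both higher in replicate 1) beside 41.1%, and with the edgeR exact test 0 beside 0.211%. Depth limits the scarce members most, with 116 to 439 reads each. No paired analysis was possible because the study has 1 group.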
